A study of Mus musculus with 8 samples.

Results

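Transfer RNA is charged with amino acids by the aminoacyl-tRNA synthetases, and the expression of these genes was examined in proliferating C2C12 cells, a mouse myoblast line, after silencing of the long non-coding RNA Pvt1. The genes were taken by symbol from the array design as 20 cytosolic synthetases, 16 mitochondrial synthetases and the scaffold genes Aimp1 and Aimp2, 38 genes in all of 37074 gene names on the array. They carried 89 probes, of which 74 were measured well enough to be tested, among 28649 tested of 56605. Each of the 38 genes had at least 1 tested probe.

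The cells came from passage 10. In the silenced group, 4 cultures received Lipofectamine 2000 with LNA GapmeRs against Pvt1 (Pvt1_1 and Pvt1_3), which are antisense oligonucleotides that direct the cleavage of a paired RNA. In the control group (Mock), 4 cultures received the same reagent with negative control GapmeRs, so both groups were transfected. The study's methods give lysis at 48 h after transfection. The labels call the cultures of a group biological replicates.

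Each synthetase joins 1 kind of amino acid to its tRNA, and ribosomes depend on these charged tRNAs for translation. Animal cells keep a cytosolic set and a mitochondrial set, both encoded in the nucleus, while Gars and Kars each encode forms for both compartments. The enzymes fall into class I and class II by the fold of the catalytic domain. In the cytosol several of them assemble with Aimp1, Aimp2 and Eef1e1 into the multisynthetase complex. Many cytosolic synthetase genes are known targets of ATF4, the transcription factor that answers amino acid shortage.

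Between 51.6% and 62.5% of spots were positive and significant on an array, the lowest share being that of silenced culture 4 and the shares of the other 7 arrays lying at 58.8% or above. Control culture 3 had a mean correlation of 0.960 with the arrays of its group, against 0.980 to 0.986 for the other 7. The brightest Pvt1 probe had log2 signals of 9.65, 9.79, 10.31 and 9.70 in controls 1 to 4 and 7.09, 6.69, 7.85 and 6.39 in silenced cultures 1 to 4, a change of -2.86 (SE 0.32, adjusted p 0.000682). Of all tested probes, 18.4% were lower and 4.79% higher after silencing (limma adjusted p under 0.05), and 79.3% of the calls were lower. That share was 76.1% with a shift to the 75th percentile and 77.5% with normexp background correction. It was 49.3% with cyclic loess, 48.8% with the authors' series table, 49.0% without masking of dim spots and 59.7% without silenced culture 4. Over all probes the change had a median of -0.19, or 0.02 under cyclic loess. Over all named genes read by their brightest probe the median was -0.09, or 0.11 under cyclic loess, and the median of each gene list is followed by its value relative to the one under the same scaling.

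Of 6 myoblast markers, 5 were well above background on all 8 arrays, Vim, Des, Cdh15, Myod1 and Ncam1, while Myf5 was not so on any array. Their summed linear signal was 113216 to 138497 in controls and 75001 to 97157 after silencing. For 5 myotube markers the sums were 2945 to 3882 and 1297 to 1778. Of these Acta1 was called lower (-1.88), while Myog (0.13), Tnnt3 (-0.26) and Myh3 (-0.58) were not called. The summed signals of liver and leukocyte markers moved with the groups. The 8 liver markers summed to 838 to 1671 in controls and 4630 to 5825 in silenced cells. In controls 7 of them (Alb, Apoa1, Ttr, Fgb, Serpina1a, Mup1 and Ahsg) were well above background on none of the arrays, and in silenced cells 6 of the 8 were so on all 4, Apoa1 on none. The 4 leukocyte markers summed to 1693 to 1839 and 4052 to 6923, Lyz2 being not well above background on any array, and the 3 endothelial markers were not so on any array. The part of these signals in the results below was not tested. In bulk RNA, fewer cells of a type and less RNA per cell cannot be told apart.

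The cytosolic synthetases were lower in silenced cells in 11 of 20 genes and higher in none. The fall was largest for Vars, the valine enzyme, which was left at 28.8% of its control level, and smallest among the called genes for Rars, the arginine enzyme, at 64.6%. The enzymes for histidine (Hars), tyrosine (Yars), asparagine (Nars), phenylalanine (Farsa and Farsb), alanine (Aars), isoleucine (Iars), serine (Sars) and methionine (Mars) lay between. Those for cysteine, aspartate, glutamate and proline, glycine, lysine, leucine, glutamine, threonine and tryptophan were not called. Each gene was read here from its brightest tested probe.

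**Figure D1:**
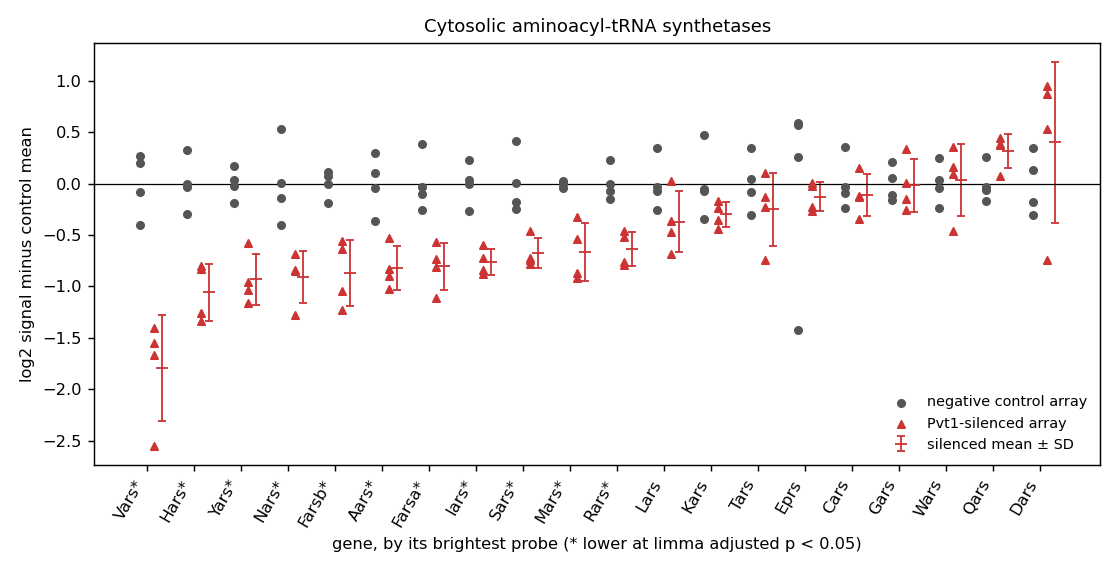
Log2 signal of each array minus the control mean for the brightest probe of the 20 cytosolic synthetases, with 4 control arrays (circles) and 4 silenced arrays (triangles), bars giving the mean ± SD of the silenced arrays. All 4 silenced arrays lie below all 4 control arrays in the 11 genes marked with an asterisk.

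Over all 19360 named genes read in the same way, 14.0% were lower and 5.99% higher, and 14.3% were lower among those well above background on all 8 arrays, as all 20 cytosolic synthetases were. Their median change was -0.65, or -0.55 once set against the all-gene median of -0.09. The silenced arrays lay below every control array in 11 of the 20 genes, against 18.9% of all genes. With cyclic loess the median was -0.44 (-0.55 relative), 10 genes were lower and 2, Dars and Qars, were higher, against 14.3% lower and 22.1% higher among all genes. The higher liver marker signal of the silenced arrays ran beside these falls, and its part in them was not tested. Row 1 of the slide held 3 control arrays and 1 silenced array, and row 2 held 1 control and 3 silenced arrays. With the row as a block 1 of the 11 genes, Vars, was still called lower, beside 2573 probes lower over the array, against 5269 without it. The median of the 20 genes was then -0.59 (-0.52 relative to all genes).

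Vars was measured by 1 tested probe, with log2 signals of 13.29, 13.57, 12.97 and 13.65 in controls 1 to 4 and 11.70, 11.82, 10.82 and 11.96 in silenced cultures 1 to 4. Its change was -1.79 (SE 0.29, adjusted p 0.00283), and it was the cytosolic gene whose highest silenced array lay farthest below the lowest control array. Hars had log2 signals of 12.51, 12.77, 13.13 and 12.81 in controls 1 to 4 and 11.97, 12.01, 11.55 and 11.48 in silenced cultures 1 to 4, changing by -1.05 (SE 0.22, adjusted p 0.00911). For Yars they were 12.95, 13.31, 13.11 and 13.17 in controls 1 to 4 and 12.18, 12.56, 11.98 and 12.11 in silenced cultures 1 to 4, a change of -0.93 (SE 0.20, adjusted p 0.0103). The 3 genes had no overlap between groups, and culture 3 or 4 was the lowest silenced array in each. Nars had 12.98, 13.39, 13.92 and 13.25 in controls 1 to 4 and 12.55, 12.70, 12.54 and 12.11 in silenced cultures 1 to 4, with a change of -0.91 (SE 0.25, adjusted p 0.0266), and here too the groups stood apart.

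Farsa and Farsb encode the alpha and beta subunits of the phenylalanine enzyme, and the brightest probes of both fell. Farsa had log2 signals of 14.16, 14.33, 14.81 and 14.39 in controls 1 to 4 and 13.61, 13.86, 13.69 and 13.31 in silenced cultures 1 to 4, a change of -0.80 (SE 0.22, adjusted p 0.0257). Farsb had 12.77, 12.96, 13.03 and 13.07 in controls 1 to 4 and 12.32, 12.39, 11.92 and 11.73 in silenced cultures 1 to 4, a change of -0.87 (SE 0.21, adjusted p 0.0181). Neither subunit had a silenced array that reached a control array. In Aars the values were 13.49, 13.81, 14.15 and 13.96 in controls 1 to 4 and 13.02, 13.33, 12.83 and 12.96 in silenced cultures 1 to 4, changing by -0.82 (SE 0.22, adjusted p 0.0233). In Iars they were 13.37, 13.68, 13.88 and 13.63 in controls 1 to 4 and 12.80, 13.05, 12.91 and 12.76 in silenced cultures 1 to 4, changing by -0.76 (SE 0.19, adjusted p 0.0196). Both are again without overlap, and in both the highest silenced value was that of culture 2.

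Sars, whose enzyme charges serine tRNA and also the selenocysteine tRNA with serine, had 14.54, 14.61, 15.19 and 14.78 in controls 1 to 4 and 14.04, 14.33, 14.06 and 14.00 in silenced cultures 1 to 4 and changed by -0.68 (SE 0.21, adjusted p 0.0444). Mars, which supplies both initiator and elongator methionine tRNA, had 12.84, 12.88, 12.90 and 12.89 in controls 1 to 4 and 12.35, 12.55, 11.96 and 12.01 in silenced cultures 1 to 4 and changed by -0.66 (SE 0.20, adjusted p 0.0395). Rars had 13.58, 13.73, 13.96 and 13.66 in controls 1 to 4 and 13.27, 13.22, 12.97 and 12.94 in silenced cultures 1 to 4 and changed by -0.63 (SE 0.19, adjusted p 0.0389). These 3 had the smallest called changes, and with cyclic loess Sars no longer passed (-0.47, adjusted p 0.0580). Each of the 11 called genes gave an exact two-sided permutation p of 0.0286, the smallest that 4 against 4 arrays allow.

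The 9 genes that were not called had changes between -0.37 and 0.40. Lars (-0.37), Kars (-0.30) and Tars (-0.25) had values below 0, and Eprs (-0.12), Cars (-0.11), Gars (-0.02) and Wars (0.04) were near 0. Qars had log2 signals of 12.92, 13.03, 13.35 and 13.05 in controls 1 to 4 and 13.48, 13.46, 13.53 and 13.17 in silenced cultures 1 to 4, so that 1 silenced array lay within the range of the controls, and its change was 0.32 (adjusted p 0.258), or 0.52 (adjusted p 0.0146) with cyclic loess. Dars changed by 0.40 (adjusted p 0.472), or 0.75 (adjusted p 0.0169) with cyclic loess, on a probe that the array assigns to an Ensembl transcript. The probe for its RefSeq transcript changed by -0.59 (adjusted p 0.462), or -0.15 with cyclic loess, and the mean of both probes by -0.01. Eprs, which joins the glutamate and the proline enzyme in 1 protein, had 13.57, 13.90, 11.88 and 13.87 in controls 1 to 4 and 13.28, 13.31, 13.08 and 13.04 in silenced cultures 1 to 4. Control culture 3 lay far below the other controls there, at 11.88 against 13.57 to 13.90. Without both that culture and silenced culture 4 the gene was called lower (-0.55), and without either of them alone it was not called.

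Both structural classes held genes that fell, and the counts by class, complex and ATF4 list stand beside 14.0% lower over all genes. In class I 5 of 10 genes were lower, with a median change of -0.50 (-0.41 relative to all genes), and in class II 6 of 10, with a median of -0.74 (-0.65 relative). Of the 11 genes of the multisynthetase complex 3 were lower (Iars, Mars and Rars), with a median of -0.30 (-0.21 relative). The 8 cytosolic synthetases that belong to the complex had a median of -0.33 (-0.24 relative), and the 12 outside it had 8 lower genes and a median of -0.81 (-0.72 relative). The scaffold gene Aimp1, whose product also gives a secreted cytokine, changed by 0.16 (adjusted p 0.641) and Aimp2 by 0.12 (adjusted p 0.737), with overlapping groups in both, and without masking of dim spots Aimp1 was higher (0.34). Another Aimp2 probe, at base 173 of another RefSeq transcript, changed by -0.69 without being called, and the mean of the Aimp2 probes by -0.28. Among the 12 synthetases listed as ATF4 targets 6 were lower (median -0.52, -0.42 relative), and among the other 8 there were 5 (median -0.72, -0.63 relative). These counts rest on the choice of probe. With the probes of a gene averaged, Cars (-0.95), Eprs (-0.84), Lars (-1.04) and Wars (-0.70) were also lower. All of these are class I genes listed as ATF4 targets. Aars, a class II gene on the ATF4 list, was then no longer called (-0.66). The differences between these subgroups were not tested.

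Among the mitochondrial synthetases 4 of 16 genes were lower and none higher. Sars2, Iars2, Nars2 and Cars2, which charge mitochondrial tRNA with serine, isoleucine, asparagine and cysteine, were left at 24.8%, 42.1%, 55.4% and 57.7% of the control level. The median change of the 16 was -0.05, that is 0.04 relative to all genes, and 8 of the 16 values were above 0. The count of 4 in 16 stands beside the 14.0% of all genes that were lower. With cyclic loess the median was 0.20 (0.10 relative), 4 genes were lower, Fars2 having taken the place of Nars2, and 2, Aars2 and Hars2, were higher, beside 14.3% lower and 22.1% higher among all genes. Without silenced culture 4 Aars2, Hars2 and Pars2 were higher and Cars2 and Nars2 no longer passed, beside 14.9% higher and 13.6% lower among all genes. The liver and leukocyte marker sums given above moved with the same groups, and their part was not tested. With the slide row as a block 1 of the 4 genes, Iars2, was still called lower, beside 2573 probes lower over the array, against 5269 without it. The median of the 16 genes was then -0.02 (0.05 relative to all genes).

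Sars2 (chromosome 7, 29538621 to 29538680, build mm9) had log2 signals of 9.51, 10.09, 10.73 and 9.98 in controls 1 to 4 and 8.44, 9.02, 8.46 and 6.34 in silenced cultures 1 to 4, a change of -2.01 (SE 0.53, adjusted p 0.0233). Silenced culture 4 was 6.34 against 8.44 to 9.02 in the other 3, all of them below every control, and without that culture the change was -1.46. Another tested Sars2 probe, assigned to another transcript, changed by -0.28, and the mean of the Sars2 probes by -1.18 (adjusted p 0.0487). Iars2 had 11.26, 11.34, 11.83 and 11.41 in controls 1 to 4 and 10.36, 10.55, 10.16 and 9.78 in silenced cultures 1 to 4, a change of -1.25 (SE 0.23, adjusted p 0.00534), with its arrays closer together. Another tested Iars2 probe, assigned to another RefSeq transcript, changed by 0.49, and the mean of the Iars2 probes by -0.59 (adjusted p 0.137). In Nars2 the values were 7.84, 8.55, 8.63 and 8.37 in controls 1 to 4 and 7.41, 7.98, 7.50 and 7.09 in silenced cultures 1 to 4, a change of -0.85 (SE 0.26, adjusted p 0.0406), and silenced culture 2 lay above control culture 1. With cyclic loess its adjusted p was 0.0902. Cars2 had 10.10, 10.33, 10.73 and 10.39 in controls 1 to 4 and 9.91, 9.97, 9.39 and 9.11 in silenced cultures 1 to 4, and its change of -0.79 (SE 0.25, adjusted p 0.0486) was the closest of the 4 to the threshold. Fars2, the single-chain mitochondrial phenylalanine enzyme, lay just outside it, at 10.87, 11.00, 11.45 and 11.10 in controls 1 to 4 and 10.49, 10.35, 10.78 and 10.08 in silenced cultures 1 to 4, a change of -0.68 (SE 0.22, adjusted p 0.0542) although its groups stood apart, and with cyclic loess it passed (adjusted p 0.0180).

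The largest values above 0 were those of Pars2, Aars2 and Hars2, the enzymes for proline, alanine and histidine. Pars2 had 8.89, 9.20, 9.98 and 9.11 in controls 1 to 4 and 10.18, 10.18, 10.92 and 8.49 in silenced cultures 1 to 4. For Aars2 the values were 6.85, 7.25, 7.47 and 7.01 in controls 1 to 4 and 7.79, 7.75, 8.28 and 6.94 in silenced cultures 1 to 4, and for Hars2 they were 9.70, 9.90, 10.37 and 10.05 in controls 1 to 4 and 10.82, 10.44, 11.01 and 9.81 in silenced cultures 1 to 4. In all 3 genes silenced culture 4 lay within or below the range of the controls while the other 3 silenced arrays lay above it, and the changes were 0.65, 0.55 and 0.52 (adjusted p 0.359, 0.212 and 0.226). The Hars2 probe at base 1793 of the same transcript changed by -0.59 without being called, and the mean of the Hars2 probes by -0.03. The others that were not called, Wars2, Mars2, Ears2, Vars2, Lars2, Yars2, Tars2 and Rars2, ranged from -0.68 to 0.25. Wars2 was the gene of the 38 whose brightest probe was not well above background on all 8 arrays.

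**Figure D2:**
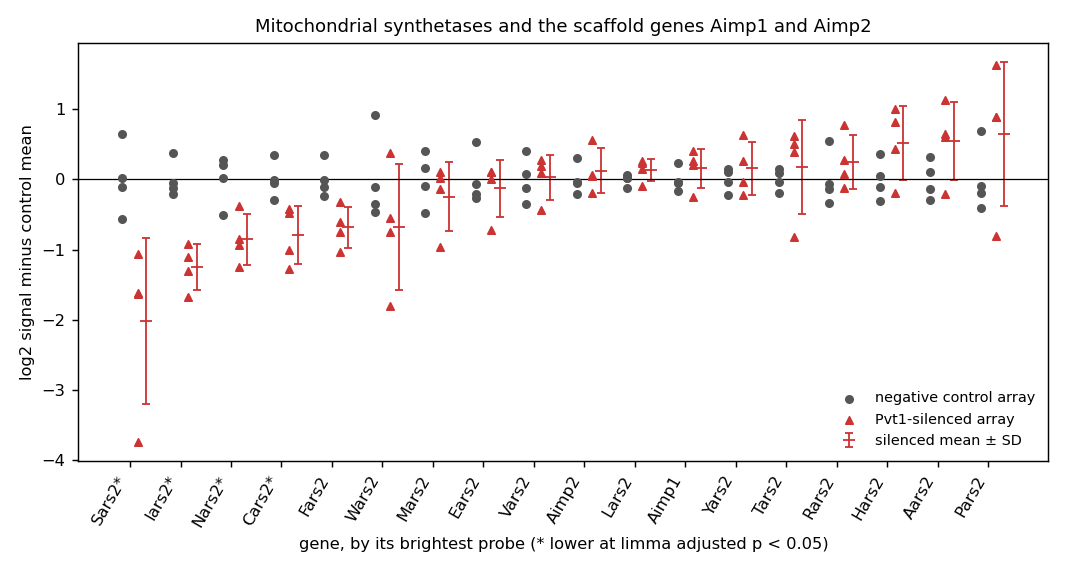
Log2 signal of each array minus the control mean for the brightest probe of the 16 mitochondrial synthetases and of Aimp1 and Aimp2, with 4 control arrays (circles) and 4 silenced arrays (triangles), bars giving the mean ± SD of the silenced arrays. The 4 called genes lie at the left, and silenced culture 4 is the lowest triangle in each of the 18 genes.

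Mitochondria make glutaminyl-tRNA indirectly: Ears2 puts glutamate on the glutamine tRNA and an amidotransferase of the subunits Qrsl1, Gatb and Gatc converts it. All 3 subunits were lower, and they were the called genes among 18 charging partners, a list that also held the translation elongation factors and Eef1e1. A count of 3 in 18 is near the 14.0% of all genes that were lower. Gatc had log2 signals of 9.12, 9.50, 9.67 and 9.64 in controls 1 to 4 and 8.27, 8.19, 7.91 and 7.39 in silenced cultures 1 to 4, a change of -1.54 (SE 0.25, adjusted p 0.00294). Gatb had 9.79, 10.06, 10.14 and 10.04 in controls 1 to 4 and 9.27, 9.58, 9.33 and 8.28 in silenced cultures 1 to 4, a change of -0.89 (SE 0.28, adjusted p 0.0484). In Qrsl1 the values were 9.75, 10.04, 10.32 and 10.08 in controls 1 to 4 and 9.48, 9.57, 9.27 and 8.96 in silenced cultures 1 to 4, a change of -0.73 (SE 0.22, adjusted p 0.0377). No silenced array reached a control array in any of them. Ears2 itself changed by -0.13 (adjusted p 0.778) on its brightest probe. The list's median was -0.15, which is -0.06 relative to all genes.

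Of 35 genes that mature or modify tRNA, 8 were lower and none higher, beside 14.0% and 5.99% of all genes. Their median change was -0.12, which is -0.03 relative to all genes. The largest changes were those of Qtrt1 (-1.41) and Qtrtd1 (-1.32), the subunits of the enzyme that inserts queuine at the wobble base, Alkbh8 (-1.06) and Ctu1 (-0.93), which modify the wobble uridine, and Trmt61a (-1.06), which methylates an adenosine of the tRNA body. In Qtrtd1 control culture 3 lay at 7.96 against 9.23 to 9.40 in the other controls, within the range of the silenced arrays. With cyclic loess 11 of the 35 were higher and 8 lower, beside 22.1% and 14.3% of all genes, and Qtrtd1 (adjusted p 0.0636) and Ctu1 (adjusted p 0.0623) no longer passed.

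Of 22 genes of the ATF4 response and amino acid supply, 9 were lower and none higher, beside 14.0% and 5.99% of all genes, with a median of -0.53 (-0.44 relative to all genes). The 9 include Slc7a5, whose brightest probe was well above background on none of the 8 arrays. Pycr1, of proline synthesis, was well above background on all control arrays and on no silenced array, and was at least 10.3-fold higher in controls (adjusted p 0.000124). The mitochondrial folate genes Shmt2 (-1.79) and Mthfd2 (-1.37), the amino acid transporter subunit Slc3a2 (-1.55) and the transcription factor Atf3 (-1.26) followed. Atf4 itself changed by -0.11 (adjusted p 0.709). Slc7a11 (1.28, adjusted p 0.0542) and Ddit3 (0.62, adjusted p 0.0640) had the largest values above 0 without being called. With cyclic loess 2 of the 22, Slc7a11 and Ddit3, were higher and 9 lower, beside 22.1% higher and 14.3% lower among all genes. Of the 18 charging partners 4 were then higher and 3 lower. The liver marker signal moved with the groups beside these 3 lists as well, and its part was not tested.

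The result of a gene differed between probes along its transcript. In 13 of 15 synthetase transcripts the change was lower at the probe nearer the 5′ end, near the share of 83.1% over all transcripts of the array. Cars, Eprs, Lars and Wars were not called by their brightest probes, and each had another probe, upstream, that was lower in silenced cells. With these, 15 of the 20 cytosolic genes had a called probe, and with Ears2, Fars2 and Tars2, 7 of the 16 mitochondrial genes. Over all genes 23.4% had at least 1 tested probe called lower. Of the 74 tested probes 32 were lower (43.2%) and none higher, beside 18.4% lower and 4.79% higher of all tested probes.

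Farsa showed the order most clearly, with probes starting at bases 789, 1480 and 1699 of its RefSeq transcript. The log2 signal at base 789 was 9.98, 10.24, 10.00 and 10.37 in controls 1 to 4 and 7.73, 8.15, 7.13 and 7.43 in silenced cultures 1 to 4, a change of -2.54 (SE 0.25, adjusted p 0.000475). At base 1480 the change was -1.51 (SE 0.21, adjusted p 0.00145), and at base 1699 it was -0.80. In Cars the probes at bases 1789, 2089 and 2682 changed by -1.45, -1.30 and -0.11. In Eprs those at bases 279, 2067, 3022 and 4624 changed by -1.35, -1.68, -0.58 and -0.12. Wars, which is also known as an interferon-induced gene, had 9.63, 10.05, 9.18 and 9.89 in controls 1 to 4 and 8.35, 8.70, 7.99 and 7.93 in silenced cultures 1 to 4 at base 1036, a change of -1.44 (SE 0.26, adjusted p 0.00495), against 0.04 at base 2766 of another RefSeq transcript of the gene, nearer the 3′ end on the genome. In Fars2 the probe at base 1086 changed by -2.09 (SE 0.24, adjusted p 0.000762), against -0.68 at base 1833.

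The 60-base probes that carry these falls were as follows, since the same gene gave another value at another place. They are written 5′ to 3′ in the sense of the RNA with coordinates of mouse build mm9 from the scanner files, and each leaves at least 1 reading frame without a stop codon. Whether a probe lies in coding sequence was not mapped here. The genome span of the first Cars probe is longer than the probe, which crosses an intron.
Farsa, base 789, chr8:87388351-87388410, plus strand: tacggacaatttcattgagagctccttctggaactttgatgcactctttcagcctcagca
Farsa, base 1480, chr8:87392808-87392867, plus strand: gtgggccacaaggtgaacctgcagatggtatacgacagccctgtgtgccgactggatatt
Cars, base 1789, chr7:150754990-150755326, minus strand: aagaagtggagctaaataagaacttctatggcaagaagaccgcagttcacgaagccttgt
Cars, base 2089, chr7:150750892-150750951, minus strand: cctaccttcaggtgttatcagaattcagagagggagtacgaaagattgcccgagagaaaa
Wars, base 1036, chr12:110104366-110104425, minus strand: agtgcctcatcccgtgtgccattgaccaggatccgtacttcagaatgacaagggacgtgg
Fars2, base 1086, chr13:36324081-36324140, plus strand: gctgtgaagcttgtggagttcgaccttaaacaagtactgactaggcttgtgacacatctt

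In 15 transcripts of these genes, each with at least 2 probes well above background on all 8 arrays, the change was lower at the probe nearest the 5′ end than at the one nearest the 3′ end in 13. Among all 2566 such transcripts this held in 83.1%. The median change was -1.06 at the 5′ probe and -0.13 at the 3′ probe, against -0.64 and -0.01 over all transcripts. All 6 cytosolic transcripts (Cars, Eprs, Farsa, Farsb, Lars and Rars) followed this order, with a median difference between the probes of -1.28. The exceptions were Cars2 (-0.14 at the 5′ probe, -0.79 at the 3′ probe) and Iars2, whose 3′ probe changed by -1.25 and whose 5′ probe fell less. In 11 of the 15 transcripts the difference was lower on every silenced array than on any control array, against 44.0% of all transcripts.

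**Figure D3:**
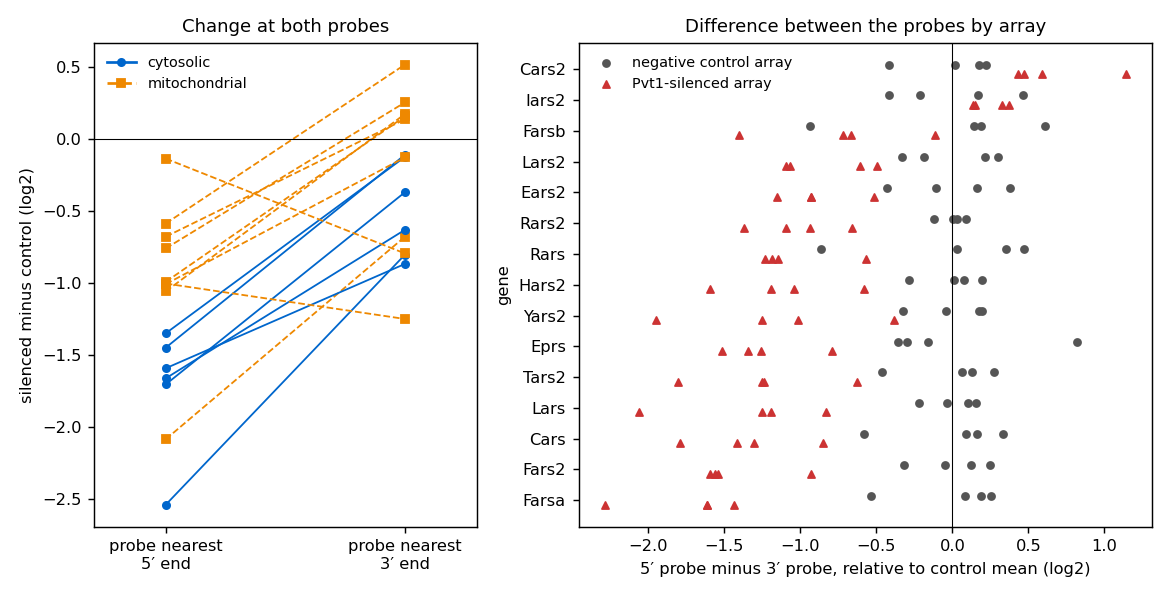
Left, change (log2, silenced minus control) of the probe nearest the 5′ and the probe nearest the 3′ end in 15 synthetase transcripts. Right, the log2 difference between those probes on each control (circles) and silenced (triangles) array, relative to the control mean. The lines rise to the right in all but Cars2 and Iars2, and the triangles lie left of every circle in 11 transcripts.

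For Farsa the 5′ probe minus the 3′ probe was -4.27 ± 0.36 (SD, n = 4) in controls and -6.01 ± 0.38 (SD, n = 4) after silencing. The brightest probe was the one nearest the 3′ end in all 17 genes with several such probes, and the change there was the lower one in Cars2 and Iars2 and the higher one in the other 13 transcripts compared. A polyadenylation signal, AATAAA or ATTAAA on the sense strand, which lies near 3′ ends, was present in 12 tested probes of these genes, and 1 of them was lower, that of Sars, beside 6.64% of such probes on the array. Their median change was 0.08, against 0.17 for the 4265 such probes of the array. When the tested probes of a gene were averaged, 17 of the 38 genes were lower, beside 15.4% lower and 4.44% higher among all genes read so, Cars, Eprs, Fars2, Lars and Wars being added and Aars, Cars2 and Iars2 lost. What set this order was not tested, and the position of a probe and its brightness cannot be told apart here.

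In Yars the probe at base 327 was well above background on no silenced array and was at least 2.90-fold higher in controls (adjusted p 0.0138). Ears2 had a lower probe at base 1395 (-1.01, adjusted p 0.00677) beside its brightest one, and Tars2 at base 1809 (-1.06).

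The promoters were searched because 12 of the cytosolic genes are listed as ATF4 targets. RefSeq (assembly GRCm38.p6) gave a window from 250 bases before to 50 bases after the start site for 29 of the 38 genes, all but Cars, Hars, Lars, Nars, Rars, Vars, Wars, Pars2 and Hars2. The core of the CARE site bound by ATF4 (TGATGNAA, either strand) was found in 5 of the 29, Aars, Gars, Iars, Tars and Yars, all of them among the 8 listed ATF4 targets with a window, against 3.97% of 32851 windows. Of these 5 genes Aars, Iars and Yars were lower in silenced cells (-0.82, -0.76 and -0.93), while Gars (-0.02) and Tars (-0.25) were not called. The 30 bases around 1 match in each of these genes are given on the strand of the gene, with the match in capitals and the coordinates of the 30 bases in GRCm38.p6.
Aars, chr8:111033840-111033869, plus strand: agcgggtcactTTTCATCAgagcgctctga
Gars, chr6:55037960-55037989, plus strand: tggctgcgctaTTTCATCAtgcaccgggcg
Iars, chr13:49682126-49682155, plus strand: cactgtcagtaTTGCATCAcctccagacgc
Tars, chr15:11399655-11399684, minus strand: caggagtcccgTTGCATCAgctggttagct
Yars, chr4:129189895-129189924, plus strand: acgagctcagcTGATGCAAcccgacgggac

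The E-box CACGTG, a palindrome bound by Myc and related factors, was found in the windows of 5 of the 29 genes, those of Aars, Farsb, Iars, Tars and Ears2, against 7.15% of all windows. Aars, Farsb and Iars were lower, and Tars and Ears2 (-0.13) were not called. A match describes the sequence only.

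Under the other ways of processing, the median of the cytosolic synthetases lay between -0.80 and -0.44 and below that of all genes read the same way in each. That of the mitochondrial synthetases lay between -0.44 and 0.24, and was below that of all genes when the arrays were shifted to the 75th percentile, when control culture 2 was left out, when the probes of a gene were averaged and when the probe nearest the 3′ end was used, and above it otherwise. With the shift to the 75th percentile Farsa, Rars and Sars no longer passed, which left 8 cytosolic genes lower, and Fars2 was added to the 4 mitochondrial genes, beside 18.6% lower and 9.34% higher among all genes. Without control culture 2 or 4 there were 3 cytosolic genes and 1 mitochondrial gene lower, while the probes lower over the array went from 5269 to 3077 and 2995. Without silenced culture 1 there were 4 and 2 genes, beside 3990 probes, and without silenced culture 3 there were 6 and 3 genes, beside 4269 probes.

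**Figure D4:**
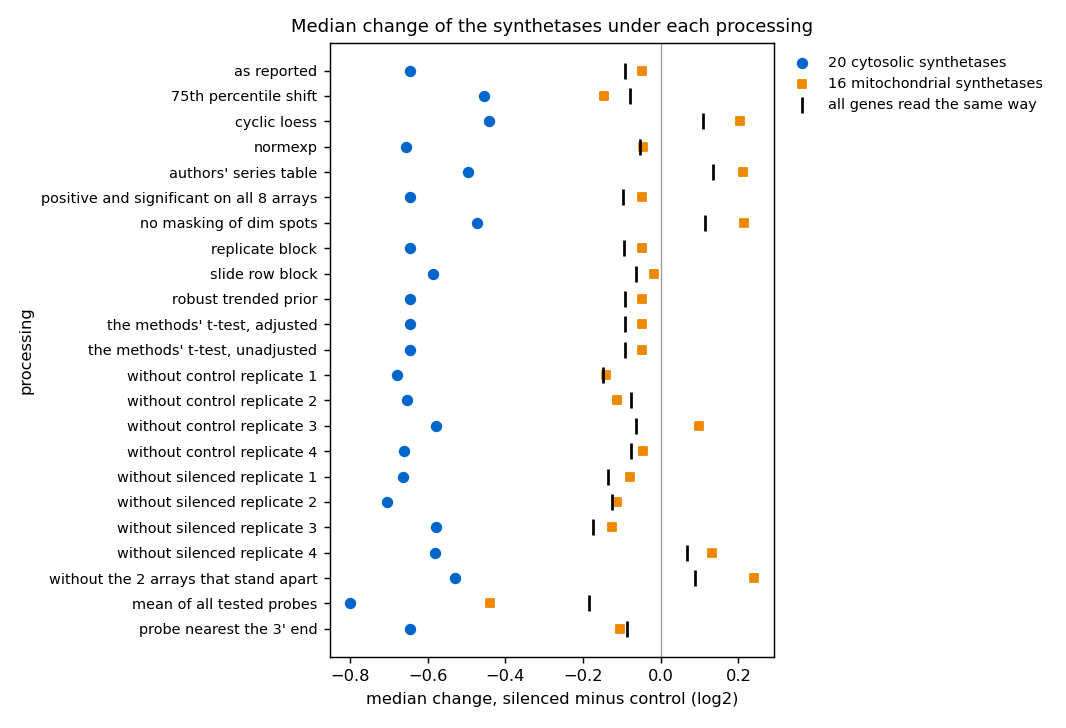
Median log2 change (silenced minus control) of the 20 cytosolic synthetases (circles), the 16 mitochondrial synthetases (squares) and all genes read the same way (bars) under each processing, 1 row each. The circles stay left of the bars in every row, and the squares cross 0 between rows.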

How the data were processed

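RNA from 8 cultures was measured on 8 one-colour Agilent arrays, all on 1 slide and read in 1 scan. Intensity of each spot, on a linear scale, is what the deposited scanner files hold, and their processed signal had been background-subtracted and detrended by Feature Extraction 12.0.0.7 per the file headers (the submitters' processing notes name 10.7.3.1). A further table deposited by the authors holds intensity normalized between arrays. The flags for signal above background (coded 0 or 1) are those deposited in the scanner files.

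Following the study's methods, spots not positive and significant were set to missing, log2 values of the intensity the authors deposited were quantile normalized and spots of one probe were averaged. Control and outlier spots were left out. Probes with at least 3 values in each group were fitted in R 4.3.3 with limma 3.58.1, without covariates beside group. Benjamini-Hochberg adjustment ran over all 28649 tested probes. The adjusted p in the text is limma's, and called means under 0.05. The fit was tested on simulated data in which 200 of the 28649 probes were changed. It recovered 13% of the changes of 1 log2 unit and 63% of those of 2, with 3 false calls among 79. A gene that was not called may thus still have changed. Each gene was represented by its tested probe of highest mean signal (the brightest). Where every array of a group failed to be well above background, a bound replaced the fold: the bright group's mean was set, for each dim array, against its own value or the array's lowest well-measured value, whichever was higher.

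Named were all 38 genes, Pvt1, and from each neighbouring list at most 5 called genes by size of change. Slc7a5 was named besides, after its values were seen, for its signal near background. Atf4, Slc7a11 and Ddit3 were also named after their values were seen, as genes of that list that were not called. The members and lists were chosen with earlier results of these data known. Some sequences are not reported here. Alternatives are given in the closing section. Precision is limited by the number of arrays. The plots were made with matplotlib 3.10.9.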

Additional observations from a re-analysis of the deposited data

Results flagged for a closer look

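In 3 of 78 groups of 4 arrays (39 genes, Pvt1 included, by brightest probe) 1 array stood far from the other 3, where chance gives about 1 in 20 groups. Eprs had a log2 signal of 11.88 in control culture 3, against 13.57 to 13.90 in the other controls. Ears2 had 9.82 in silenced culture 4, against 10.55 to 10.65 in the other silenced cultures. Tars2 had 12.25 in silenced culture 4, against 13.45 to 13.69.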

How the results depend on the processing

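Under 22 alternatives, the Pvt1 change kept its direction and stayed past the threshold. As reported, 11 cytosolic and 4 mitochondrial synthetases were lower and none higher, beside 5269 probes lower and 1373 higher over the array. The cause of the changes below was not tested. With cyclic loess 2 cytosolic and 2 mitochondrial genes were higher, beside 5416 probes. With the authors' series table these were 2, 3 and 5009, and without masking of dim spots 2, 3 and 4990, with Aimp1 also higher and 2 mitochondrial genes lower. With a shift to the 75th percentile 8 cytosolic and 5 mitochondrial genes were lower (Farsa, Rars and Sars lost, Fars2 gained), beside 6884 probes lower and 2165 higher. With the slide row as a block 1 cytosolic and 1 mitochondrial gene were lower, beside 2573 probes lower and 534 higher. With the methods' t-test, adjusted, 7 and 1 were lower, beside 2854 probes lower and 566 higher, and unadjusted 1 cytosolic gene and 2232 probes were higher. Leaving out control culture 3 and silenced culture 4 together, an alternative chosen knowing the data, gave 2 cytosolic and 4 mitochondrial genes higher, 2 mitochondrial genes lower and 5341 probes higher. Averaging the tested probes of a gene turned Wars to -0.70, past the threshold.

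Leaving out 1 array at a time gave 3 to 11 cytosolic genes lower and 0 to 1 higher, 1 to 4 mitochondrial genes lower and 0 to 3 higher, and 2995 to 5737 probes lower and 684 to 3572 higher. Without silenced culture 4, 3572 probes were higher and 2 mitochondrial genes lower, and without control culture 2 or 4, 3 cytosolic genes and 1 mitochondrial gene were lower.

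The replicate numbers shared by the groups were tried as a replicate block. Deviations of same-numbered cultures correlated by -0.04, 0.19, 0.22 and 0.06, and in numbers 2 and 3 alone was each culture closest to its own number, so the cultures share only a number. With the replicate block 3 cytosolic genes (Hars, Vars and Yars) and 2 mitochondrial genes (Iars2 and Sars2) were lower, beside 3994 probes lower and 1023 higher.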
